A study of Homo sapiens with 8 samples.

Results

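The genes described here are the well-expressed members of the human ZNF family, which were selected on their level of expression. A gene was a member when its symbol was ZNF followed by a number and at most 1 letter and when its mean over all 8 libraries was at least 10 CPM (the raw count of a gene scaled to the total count of its library). Of 63677 genes in the deposited count tables, 601 carried such a symbol, 284 of these were members, and 97 had no count in any library. The members just inside the minimum were ZNF264 at 10.29, ZNF234 at 10.21 and ZNF567 at 10.06 CPM, and those just outside it were ZNF720 at 9.91, ZNF773 at 9.87 and ZNF439 at 9.85 CPM. For 3 members (ZNF599, ZNF234 and ZNF567) the DMSO mean was below 10 CPM in both lines and the ACBI-1 libraries carried them over the minimum.

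ZNF proteins bind DNA or RNA through C2H2 zinc fingers, short folds in which 2 cysteines and 2 histidines hold a zinc ion and in which a few exposed residues read the bases. Many carry a KRAB box at their amino end, which recruits TRIM28 (KAP1) and, through it, the histone methyltransferase SETDB1 and the HP1 proteins, and so silences the bound site. Transposable elements are the best known targets of this KRAB class, whose genes lie in large clusters on chromosome 19. A smaller number carry a SCAN box, through which these proteins pair with each other, and the remainder include activators, corepressor subunits and RNA-binding proteins.

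Expression was measured by RNA sequencing of total RNA from DND-41 and MOLT-4, which are established T-cell acute lymphoblastic leukaemia lines. Each line had been given 100 nM ACBI-1 or the solvent DMSO for 3 h, with 2 libraries in each of the 4 groups and no genetic change named in the labels. ACBI-1 is a PROTAC, a small molecule with an arm for the VHL ubiquitin ligase and an arm for its targets PBRM1, SMARCA4 and SMARCA2, which are subunits of the chromatin remodeller SWI/SNF, the last 2 being its alternative motors. Whether the libraries of a group derive from separate cultures is not stated, so the p-values speak only of the scatter between libraries, possibly a technical one. In bulk RNA, fewer cells of a type and less RNA per cell cannot be told apart.

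Total counts lay between 19867779 and 20082524 per library, of which the members took 0.956% to 1.04%. The 7 T-cell markers together reached 4432 to 4604 CPM in DND-41 and 1992 to 2101 CPM in MOLT-4, with PTCRA at 0 to 0.05 CPM in DND-41. Myeloid markers summed to at most 0.604 CPM and erythroid markers to at most 0.2 CPM. The B-cell list summed to 1552 to 1764 CPM in DND-41, of which CD79A gave 1550 to 1761 CPM and PAX5 at most 0.05 CPM. The list of epithelial and fibroblast markers went from 47.8 to 57.9 CPM in DMSO to 33.98 to 35.33 CPM with ACBI-1 in DND-41, nearly all of it PDGFRB, and its part in the results below was not tested. The ACBI-1 libraries of DND-41 differed more from each other than the libraries of any other group, with a chi-square of 17.2 per gene against 3.19 to 5.58. Reads of MOLT-4 were present in DMSO replicate 2 of DND-41 at a median of 0.615% of their MOLT-4 level over 82 genes, against 0% in the other DND-41 libraries.

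The members' levels spanned 10.06 to 381 CPM with a median of 21.7 CPM. Per kilobase of exon, which allows levels of different genes to be compared, the median of the 282 members with a matched length was 4.05 CPM per kb. The highest levels on this scale were those of ZNF775 at 50.9, ZNF512B at 38.9, ZNF598 at 36.4, ZNF384 at 32.6 and ZNF362 at 31.3 CPM per kb. ZNF598 is a ubiquitin ligase that acts on collided ribosomes, and ZNF384 is a transcription factor known from gene fusions in B-cell leukaemia. The KRAB box was found by its letters in 154 of the 279 members with a matched coding sequence, the SCAN box in 16 and neither in 112. Members with KRAB had a median of 3.02 CPM per kb and 11.5 fingers, against 6.58 CPM per kb and 7 fingers in the 125 without it.

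The lines held most members at similar levels in DMSO. The DMSO means lay within 2-fold of each other for 262 of 284 members, and 242 had at least 10 CPM in both lines. A level at least 2-fold higher was found in MOLT-4 for 14 members and in DND-41 for 8. ZNF521, a cofactor of early blood cells that recruits the NuRD complex, stood at 27.4 and 22.2 CPM in the MOLT-4 DMSO libraries and at 0.05 and 0 CPM in those of DND-41. The reverse held for ZNF358, at 61.6 and 62.2 CPM in DND-41 and at 0.10 and 0 CPM in MOLT-4. ZNF618, ZNF704, ZNF385A and ZNF518B were 16.1-, 14.5-, 12.8- and 12.6-fold higher in MOLT-4. The MOLT-4 reads in DMSO replicate 2 would amount to 9.92%, 8.91%, 7.85% and 7.75% of the DND-41 level of these 4 genes. For ZNF521 the same estimate is 609.5% of its DND-41 level, while its value in that library was 0 CPM, so the estimate was not met by this gene. ZNF141 was 4.40-fold, ZNF862 2.91-fold, ZNF512 2.79-fold and ZNF276 2.19-fold higher in DND-41. Because the members were chosen on their level, these differences between lines are given with no test.

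**Figure D1:**
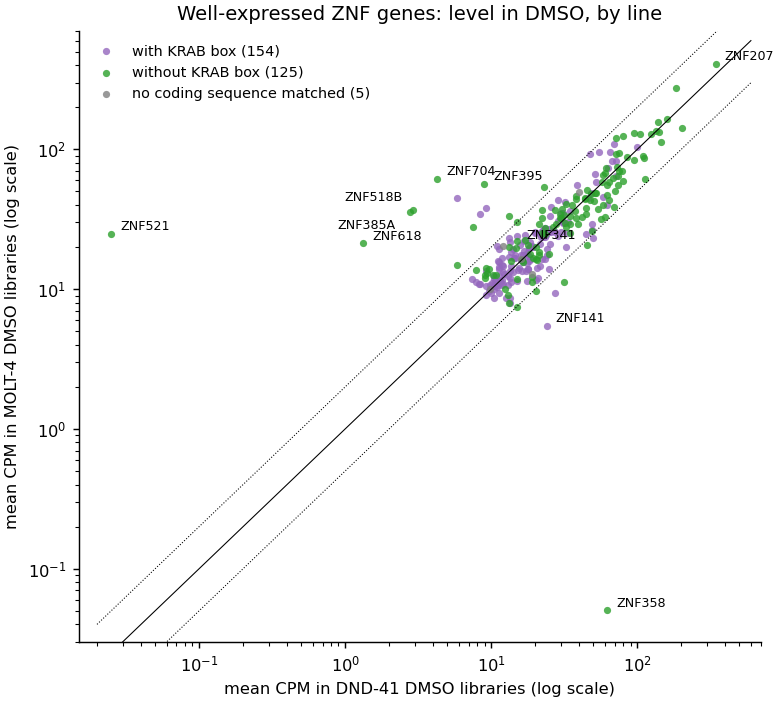
Mean CPM of the 284 members in the DMSO libraries of DND-41 (x axis) and MOLT-4 (y axis), both on log scales, with points coloured by the KRAB box, a solid line at equal levels and dotted lines at 2-fold differences. Most points lie between the dotted lines, while ZNF521 (0.05 and 0 CPM in DND-41) and ZNF358 (0.10 and 0 CPM in MOLT-4) lie far from them.

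The main comparison asked which members changed within 3 h of ACBI-1 in each line. In DND-41, 283 members passed the filter on low counts, and 28 rose and 15 fell (edgeR's quasi-likelihood test, Benjamini-Hochberg adjusted p below 0.05 over all genes tested). Those that rose were 9.89% of the members tested, beside 3.78% of all 14019 genes tested, and those that fell were 5.3% beside 6.05%. In either direction 15.2% of the members were called, beside 9.83% of all genes. In MOLT-4, 21 of 283 members rose and 21 fell, 7.42% each, beside 3.9% and 6.94% of all 14470 genes tested and 14.8% beside 10.8% in either direction. The member left out by the filter was ZNF521 in DND-41 and ZNF358 in MOLT-4.

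Well-expressed genes were called more often in general, so genes of other names with at least 10 CPM, a group chosen after the counts were seen, stand beside the members here. Of these, 4.6% rose and 7.73% fell in DND-41, and 5.05% rose and 8.24% fell in MOLT-4. Risen genes were thus the larger share of the calls among members in DND-41 (65.1%) and an equal share in MOLT-4 (50%), beside 37.3% and 38% among those other genes. The median log2 fold change of the members was 0.052 in DND-41 and 0.030 in MOLT-4, beside 0.0029 and -0.00097 over all genes tested. When the trend with the GC content of transcripts was removed, 35 members rose and 18 fell in DND-41 and 33 rose and 19 fell in MOLT-4. The transcripts of the members had a median GC content of 44.1%, beside 48.5% for the genes tested in DND-41.

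These counts rested on all libraries of a line. With DESeq2, 10 members rose and 6 fell in DND-41 and 9 rose and 15 fell in MOLT-4. Of 8563 genes of other names with at least 10 CPM, it called 189 higher and 384 lower in DND-41. Of 8618 such genes in MOLT-4, 202 were higher and 407 lower. The equal numbers of risen and fallen members in MOLT-4 were thus those of the main edgeR fit. They held neither with the GC trend removed, as given above, nor with DESeq2. Within the line's own fit, leaving out ACBI-1 replicate 1 of DND-41 left 0 members called (63 at an unadjusted p below 0.05, edgeR), and leaving out replicate 2 left 3, while 17 were called without DMSO replicate 1 and 17 without DMSO replicate 2. In MOLT-4, 0 members were called without ACBI-1 replicate 1 (47 at an unadjusted p below 0.05, edgeR) or without replicate 2 (54), while 37 were called without DMSO replicate 1 and 34 without DMSO replicate 2. In a fit of all 8 libraries, which shares the spread between the lines, 38 members were called in DND-41 and 40 in MOLT-4. In that fit 22, 35, 20 and 16 were called in DND-41 without ACBI-1 replicates 1 and 2 and DMSO replicates 1 and 2, and 22, 23, 27 and 24 in MOLT-4. The single-library results below refer to that fit.

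**Figure D2:**
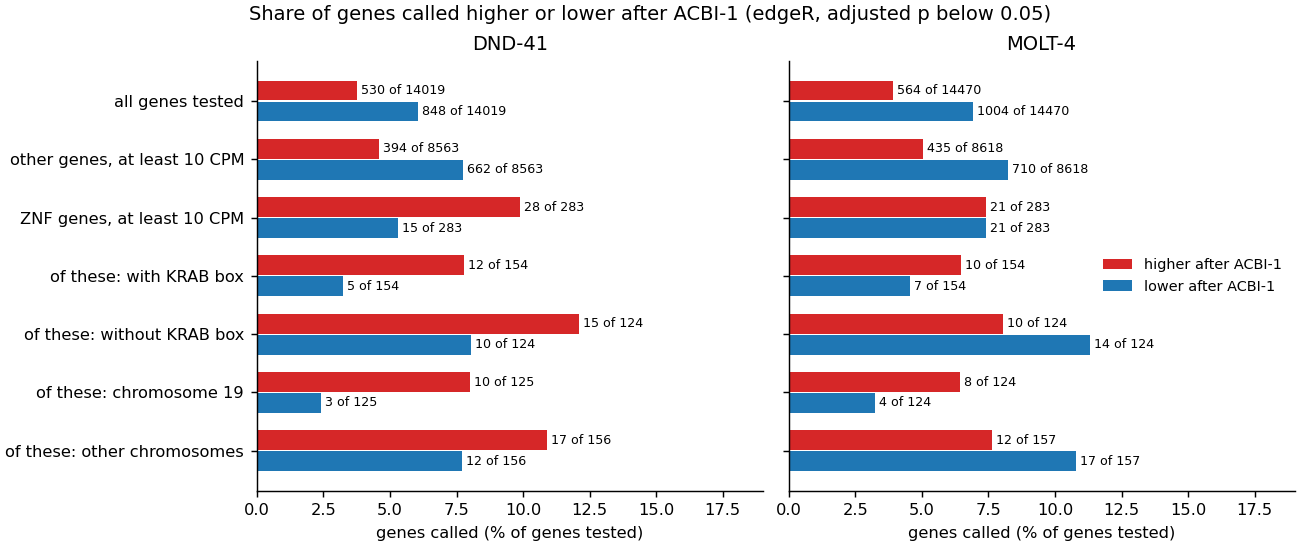
Genes called higher (red) or lower (blue) after ACBI-1 as a percentage of the genes tested in each class, with the counts beside the bars, for DND-41 (left) and MOLT-4 (right). Members that rose were 9.89% in DND-41 and 7.42% in MOLT-4, beside 3.78% and 3.9% of all genes tested.

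Calls were found in members with and without the KRAB box, at different shares. Of 154 members in which KRAB was found, 12 rose and 5 fell in DND-41 and 10 rose and 7 fell in MOLT-4. Among the 124 tested members in which it was not found, 15 rose and 10 fell in DND-41 and 10 rose and 14 fell in MOLT-4. In either direction 11% of the members with KRAB were called in each line, beside 9.83% and 10.8% of all genes tested. Of genes of other names with at least 10 CPM, 12.3% were called in DND-41 and 13.3% in MOLT-4. Of the members without KRAB 20.2% were called in DND-41 and 19.4% in MOLT-4. ZNF202, ZNF213 and ZNF496, which were called in DND-41, are counted in the second class because the search did not find the divergent KRAB boxes they are known to carry. The classes also differ in level, as given above, and the difference between them was not tested. Of the 125 members on chromosome 19, 97 of which carry KRAB, 10 rose and 3 fell in DND-41, and of the 124 tested in MOLT-4, 8 rose and 4 fell. The shares called there were 10.4% and 9.68%, near those of all genes tested and below those of other genes with at least 10 CPM. On the other chromosomes 17 rose and 12 fell of 156 in DND-41, and 12 rose and 17 fell of 157 in MOLT-4, which are 18.6% and 18.5%. Of the 16 SCAN members ZNF202 and ZNF213 rose and ZNF496 and ZNF500 fell in DND-41, and ZNF496 fell in MOLT-4, all of them named here after their values were seen. The shares of SCAN members called were 25% in DND-41 and 6.25% in MOLT-4.

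Of 284 members, 153 share exonic bases with another annotated gene. Since the strand setting of the counting is not given in the sources used here, reads of such a pair cannot be told apart, and members with near-identical copies may share reads.

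Of 282 members tested in both lines, 11 rose in both, 9 fell in both and 1 moved in opposite directions. The 20 called the same way were 46.5% of the members called in DND-41 and 48.8% of the 41 called in MOLT-4 and tested in both. Over all genes tested in both lines the corresponding shares were 49% and 45.2%. The log2 fold changes of the members had the same sign in both lines for 208 of 282 members, with a Pearson correlation across genes of 0.694, beside 0.445 over all genes tested in both lines, and a Spearman correlation of 0.645. All genes tested include genes below 10 CPM, so the Pearson correlations are not matched for level. The lines share no library, but genes are not independent replicates. Of the 43 members called in DND-41, 40 had the same sign in MOLT-4, the exceptions being ZNF217, ZNF438 and ZNF771.

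**Figure D3:**
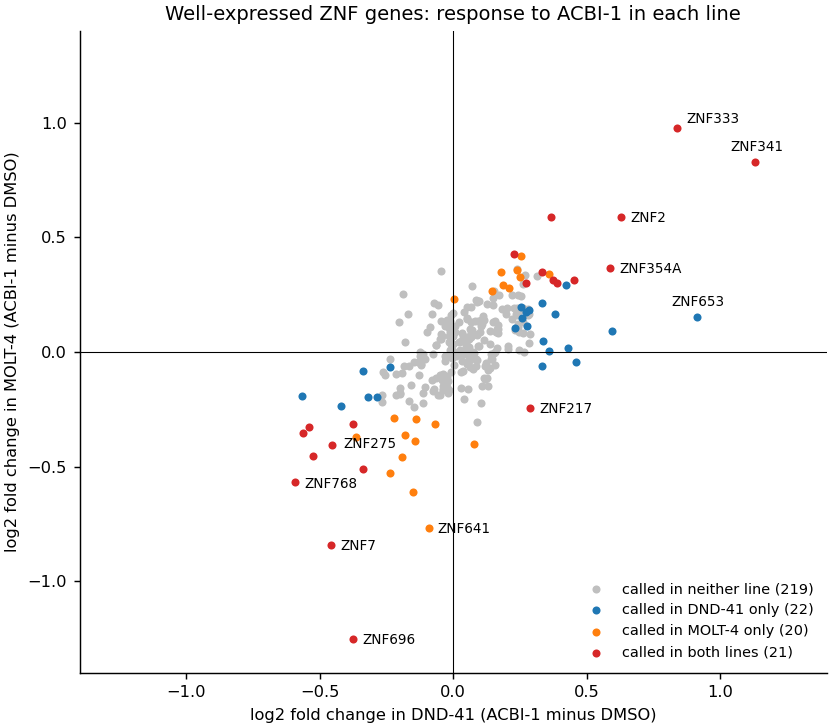
Log2 fold change after ACBI-1 in DND-41 (x axis) and MOLT-4 (y axis) for the 282 members tested in both lines, coloured by the line in which each was called. ZNF333 (0.84 and 0.98) and ZNF341 (1.13 and 0.83) lie at the upper right, ZNF696 lies lowest in MOLT-4 at -1.25, and ZNF217, called in both lines, lies in the lower right quadrant with ZNF438, ZNF771 and ZNF385A, each called in 1 line.

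The members that rose in both lines were ZNF333, ZNF341, ZNF2, ZNF354A, ZNF32, ZNF550, ZNF280D, ZNF761, ZNF561, ZNF692 and ZNF74. Of these ZNF561 and ZNF74 fell outside the rule for named genes and were added after their values were seen. ZNF333 (ENSG00000160961), a KRAB gene on chromosome 19 with 10 fingers in its coding sequence, went from 22.8 and 20.4 CPM in DMSO to 40.3 and 37.4 CPM with ACBI-1 in DND-41. In MOLT-4 it went from 15.2 and 14.04 to 28.9 and 29.8 CPM. All ACBI-1 libraries lay above all DMSO libraries in each line, with log2 fold changes of 0.84 ± 0.09 (SE, n = 2 per group, edgeR adjusted p = 3.18e-08) and 0.98 ± 0.09 (edgeR adjusted p = 4.27e-08). ADGRE2, listed under its older symbol EMR2, is an adhesion receptor gene that shares 1354 exonic bases with ZNF333 on the opposite strand. It fell in both lines, by 0.51 and by 0.56 on the log2 scale (edgeR adjusted p = 0.000523 and 0.0368).

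ZNF341 (ENSG00000131061), an activator of the STAT3 gene, went from 15.7 and 14.3 to 31.3 and 35.0 CPM in DND-41, a log2 fold change of 1.13 ± 0.10 (n = 2 per group, edgeR adjusted p = 2.98e-10). In MOLT-4 it went from 28.1 and 32.0 to 55.6 and 53.4 CPM, a change of 0.83 ± 0.08 (edgeR adjusted p = 3.54e-08). The groups did not overlap in either line, and the DMSO level was higher in MOLT-4. STAT3 fell in DND-41, by 0.28 on the log2 scale (edgeR adjusted p = 0.0151), a fall that DESeq2 did not call, and was at -0.09 ± 0.06 in MOLT-4.

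ZNF2 went from 8.61 and 10.9 to 14.8 and 15.6 CPM in DND-41 and from 10.9 and 9.11 to 16.1 and 14.7 CPM in MOLT-4. Its log2 fold changes were 0.63 ± 0.12 and 0.59 ± 0.12, with no overlap between the groups. ZNF354A, a KRAB repressor first found in kidney, went from 24.1 and 22.7 to 35.6 and 35.3 CPM in DND-41 and from 27.5 and 27.6 to 36.0 and 36.4 CPM in MOLT-4. These are log2 fold changes of 0.59 ± 0.09 and 0.37 ± 0.08, again with no overlap. In the fit of all 8 libraries the calls of ZNF333, ZNF341 and ZNF354A held without any single library. That of ZNF2 was lost without DMSO replicate 1 of DND-41 (0.44, edgeR adjusted p = 0.073), and in MOLT-4 without ACBI-1 replicate 1 (0.53, 0.0535) or DMSO replicate 2 (0.46, 0.0738).

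The other rises were smaller in at least 1 of the lines. ZNF32 stood at 0.37 ± 0.10 in DND-41, against 0.59 ± 0.13 in MOLT-4, and ZNF692, a repressor of genes of glucose synthesis, at 0.23 ± 0.07 and 0.43 ± 0.08. ZNF280D was at 0.45 ± 0.08 and 0.31 ± 0.09, ZNF550 at 0.33 ± 0.09 and 0.35 ± 0.09, ZNF761 at 0.37 ± 0.10 and 0.31 ± 0.10, ZNF561 at 0.39 ± 0.10 and 0.30 ± 0.10, and ZNF74 at 0.27 ± 0.08 and 0.30 ± 0.07. DESeq2 did not call ZNF550, ZNF761 and ZNF561 in either line, ZNF32, ZNF692 and ZNF74 in DND-41, or ZNF280D in MOLT-4. Results with single libraries left out were not read for ZNF561 and ZNF74. In the fit of all 8 libraries ZNF692 was not called in DND-41 (0.21, edgeR adjusted p = 0.0707). ZNF32 was not called in DND-41 when any 1 library of that line was left out (0.36 and 0.34 without ACBI-1 replicates 1 and 2, 0.29 and 0.41 without DMSO replicates 1 and 2), nor in MOLT-4 without DMSO replicate 2 (0.48). ZNF550 was not called in DND-41 without ACBI-1 replicate 2 (0.25) or DMSO replicate 1 (0.26), nor in MOLT-4 without ACBI-1 replicate 1 (0.28) or DMSO replicates 1 (0.34) or 2 (0.34). ZNF280D was not called in MOLT-4 without ACBI-1 replicate 2 (0.24) or DMSO replicate 1 (0.22). ZNF761 was not called in DND-41 without ACBI-1 replicate 1 (0.25) or DMSO replicates 1 (0.42) or 2 (0.30), nor in MOLT-4 when any 1 library of that line was left out, with values between 0.22 and 0.40.

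Promoter sequences are shown for the 3 members with the largest rises in both lines, since the members that moved together could be compared there for shared letters, and the choice was made after the calls were seen. Each is the run of 250 bases up to the base before the RefSeq start site, read 5′ to 3′ on the strand of the gene in GRCh38.p14. Capitals would mark a match to 1 of 6 motifs searched on both strands: CCGGAAGT (ETS), GCGCATGC (NRF1), GCCATCTT (YY1), TGACGTCA (CREB), CACGTG (E-box) and TGGGAA (RBPJ). These windows are chr19:14689798-14690047 (plus strand) for ZNF333, chr20:33731746-33731995 (plus strand) for ZNF341 and chr2:95165559-95165808 (plus strand) for ZNF2. None of the 3 holds a match, and their GC contents are 61.6%, 68% and 58.8%.
ZNF333: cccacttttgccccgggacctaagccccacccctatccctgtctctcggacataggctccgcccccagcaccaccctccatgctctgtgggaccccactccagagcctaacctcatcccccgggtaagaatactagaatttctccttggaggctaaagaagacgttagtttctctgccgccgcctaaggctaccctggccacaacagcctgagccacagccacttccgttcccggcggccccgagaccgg
ZNF341: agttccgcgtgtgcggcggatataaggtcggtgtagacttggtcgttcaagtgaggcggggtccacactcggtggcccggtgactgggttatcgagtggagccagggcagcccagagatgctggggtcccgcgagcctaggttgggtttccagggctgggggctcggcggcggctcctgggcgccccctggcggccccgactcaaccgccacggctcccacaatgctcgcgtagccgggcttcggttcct
ZNF2: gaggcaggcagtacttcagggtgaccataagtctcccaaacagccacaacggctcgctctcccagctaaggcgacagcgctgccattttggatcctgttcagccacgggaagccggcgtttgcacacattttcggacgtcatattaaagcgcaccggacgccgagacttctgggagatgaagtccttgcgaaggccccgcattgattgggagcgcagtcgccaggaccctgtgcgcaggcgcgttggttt

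Promoters of this kind were matched for 246 of the 284 members. The ETS motif was present in 14.2% of them and in 3.64% of all 27305 promoters of the same length, the NRF1 motif in 6.91% and 2.81%, and the CREB motif in 3.66% and 1.77%. The YY1 motif was present in 2.44% and 1.37%, the RBPJ motif in 32.1% and 21.1%, and the E-box in 4.88% and 6.49%. The median GC content of these promoters was 62.2% and 58%, and the sets were not matched for level or GC content. Of the 11 members that rose in both lines, 0 held the ETS motif, 1 the CREB motif and 2 the RBPJ motif. Of the 5 members that fell in both lines and had a matched promoter, 1 held a match, for RBPJ. A match is a description of these letters, and its absence says nothing of the factor.

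The members that fell in both lines were ZNF768, ZNF7, ZNF584, ZNF275, ZNF696, ZNF395, ZNF621, ZNF629 and ZNF496, the last of which lay outside the rule for named genes and was added after its values were seen. ZNF768, which binds an old family of interspersed repeats, went from 25.2 and 27.7 to 16.3 and 19.01 CPM in DND-41 and from 27.4 and 28.1 to 21.4 and 16.7 CPM in MOLT-4. The groups did not overlap, with log2 fold changes of -0.59 ± 0.10 and -0.57 ± 0.10 (edgeR adjusted p = 7.15e-05 and 0.00023). ZNF275 went from 48.1 and 42.3 to 33.9 and 32.4 CPM in DND-41 and from 48.8 and 53.3 to 38.6 and 39.9 CPM in MOLT-4. Its log2 fold changes were -0.45 ± 0.08 and -0.41 ± 0.08, and the groups did not overlap. The calls of ZNF768 and ZNF275 in both lines held without any single library in the fit of all 8.

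The largest falls in MOLT-4 were those of ZNF696 and ZNF7, which also fell in DND-41. ZNF696 went from 11.4 and 13.1 to 5.47 and 5.03 CPM in MOLT-4 (-1.25 ± 0.14, edgeR adjusted p = 3.47e-07) and from 18.6 and 19.7 to 14.1 and 15.6 CPM in DND-41 (-0.38 ± 0.10). ZNF7 went from 24.7 and 22.2 to 12.8 and 13.8 CPM in MOLT-4 (-0.84 ± 0.10) and from 22.6 and 24.3 to 15.7 and 18.7 CPM in DND-41 (-0.46 ± 0.10). The groups did not overlap for either gene. COMMD5, which shares 389 exonic bases with ZNF7 on the opposite strand, was at -0.55 in DND-41 (edgeR adjusted p = 0.00137), against -0.40 in MOLT-4 (0.0503). DESeq2 did not call ZNF696 in DND-41. The DND-41 calls of both genes were lost without ACBI-1 replicate 1 (ZNF696 at -0.34, ZNF7 at -0.37) or DMSO replicate 2 (-0.34 and -0.41).

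ZNF584 stood at -0.53 ± 0.13 in DND-41, against -0.45 ± 0.13 in MOLT-4, ZNF621 at -0.34 ± 0.09 and -0.51 ± 0.09, ZNF629 at -0.54 ± 0.12 and -0.33 ± 0.08, and ZNF496, a SCAN gene, at -0.38 ± 0.07 and -0.32 ± 0.06. ZNF395, which was first found as a factor that binds papillomavirus DNA, was at -0.56 ± 0.15 and -0.35 ± 0.08. DESeq2 did not call ZNF584 in either line, ZNF395 and ZNF621 in DND-41, or ZNF629 in MOLT-4. The DND-41 call of ZNF395 was lost without DMSO replicate 2 (-0.51, edgeR adjusted p = 0.0918), whose MOLT-4 reads would give 3.90% of the DND-41 level of ZNF395. The same holds without ACBI-1 replicate 1 of DND-41 (-0.42), and in MOLT-4 without ACBI-1 replicate 1 (-0.26) or DMSO replicate 1 (-0.32). ZNF584 was not called in DND-41 without ACBI-1 replicate 1 (-0.33) or DMSO replicate 2 (-0.52), nor in MOLT-4 without ACBI-1 replicates 1 (-0.43) or 2 (-0.49) or DMSO replicate 2 (-0.28). ZNF621 was not called in DND-41 without ACBI-1 replicate 2 (-0.28) or DMSO replicate 1 (-0.32), and ZNF629 not in MOLT-4 without ACBI-1 replicates 1 (-0.37) or 2 (-0.30) or DMSO replicate 1 (-0.27).

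**Figure D4:**
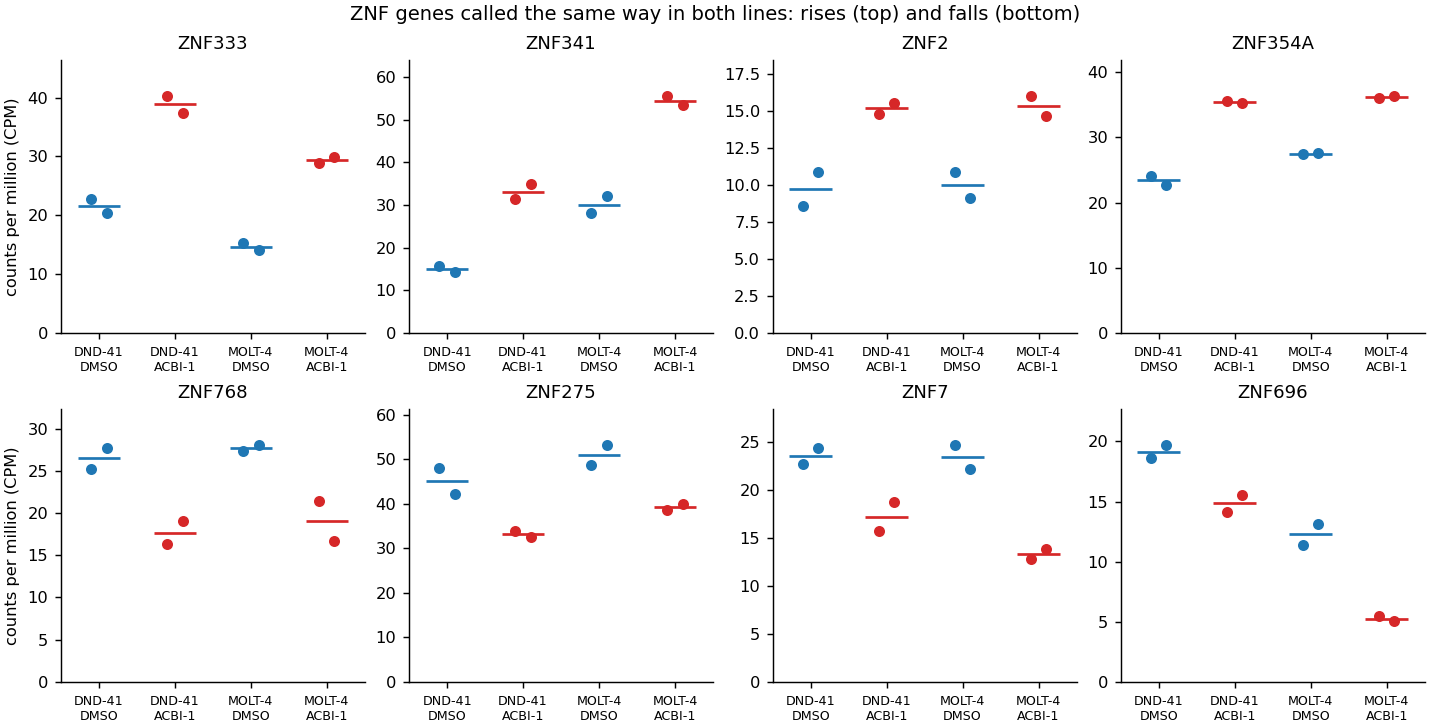
CPM of 8 members called the same way in both lines, with 1 point per library, a bar at the mean of the 2 libraries, DMSO in blue and ACBI-1 in red, and each axis starting at 0. In each panel the ACBI-1 points of a line lie on one side of its DMSO points, from 15.2 and 14.04 to 28.9 and 29.8 CPM for ZNF333 in MOLT-4 and from 11.4 and 13.1 to 5.47 and 5.03 CPM for ZNF696 in MOLT-4.

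For comparison with the rising members, the promoters of ZNF768 (chr16:30526567-30526816, minus strand) and ZNF584 (chr19:58408399-58408648, plus strand) stand for the members that fell in both lines, and ZNF217 (chr20:53593840-53594089, minus strand) is the member that moved in opposite directions. Their GC contents are 81.2%, 66.4% and 72.4%. The capitals in ZNF584 mark a match to the RBPJ motif, 53 to 48 bases before the start site, and the other windows hold no match to the 6 motifs.
ZNF768: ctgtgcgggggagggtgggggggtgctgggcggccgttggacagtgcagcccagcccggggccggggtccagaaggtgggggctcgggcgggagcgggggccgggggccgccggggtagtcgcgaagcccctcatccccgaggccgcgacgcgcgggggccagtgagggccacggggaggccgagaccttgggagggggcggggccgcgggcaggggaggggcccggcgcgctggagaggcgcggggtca
ZNF584: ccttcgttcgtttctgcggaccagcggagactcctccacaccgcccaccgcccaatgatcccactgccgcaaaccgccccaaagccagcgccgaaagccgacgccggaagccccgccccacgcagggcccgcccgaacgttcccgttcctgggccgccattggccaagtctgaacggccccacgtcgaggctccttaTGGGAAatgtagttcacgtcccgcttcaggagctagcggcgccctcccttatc
ZNF217: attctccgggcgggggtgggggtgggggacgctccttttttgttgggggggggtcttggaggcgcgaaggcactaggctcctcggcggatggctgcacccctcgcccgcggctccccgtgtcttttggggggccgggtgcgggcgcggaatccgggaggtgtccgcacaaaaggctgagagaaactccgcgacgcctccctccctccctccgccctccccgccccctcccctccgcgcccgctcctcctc

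A group chosen after its values were seen is that of the 11 members on chromosome 8. Of these ZNF7, ZNF696, ZNF395 and ZNF250 fell and ZNF517 rose in DND-41, and ZNF7, ZNF696, ZNF395 and ZNF704 fell in MOLT-4. ZNF704 was not called there without ACBI-1 replicate 1 (-0.25) or DMSO replicate 2 (-0.24). The calls were 45.5% and 36.4% of these 11, beside 15.2% and 14.8% of all members and 9.83% and 10.8% of all genes tested. DESeq2 called ZNF7 alone of the 11 in DND-41, and the same 4 falls in MOLT-4. The median log2 fold change of the 11 stood at -0.20 (DND-41) and -0.22 (MOLT-4), beside 0.052 and 0.030 over all members. As the group was formed from these values, they are given with no test.

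Changes in DND-41 that were not called in MOLT-4 included 16 rises and 6 falls. As given above, 46.5% of the members' DND-41 calls were made the same way in MOLT-4, beside 49% over all genes. ZNF653 went from 8.61 and 9.96 to 16.2 and 19.1 CPM in DND-41 (0.91 ± 0.12, edgeR adjusted p = 1.45e-06) and from 13.3 and 12.9 to 15.5 and 14.2 CPM in MOLT-4 (0.15 ± 0.11, adjusted p = 0.446). ZNF583, a KRAB gene, was at 0.60 ± 0.14 in DND-41, against 0.09 ± 0.11 in MOLT-4, and ZNF771 at 0.46 ± 0.12 and -0.04 ± 0.14. Among the falls were ZNF250 at -0.57 ± 0.15 in DND-41, against -0.19 ± 0.11 in MOLT-4, and ZNF513, a factor needed in the retina, at -0.42 ± 0.11 and -0.24 ± 0.11. DESeq2 did not call ZNF771, ZNF250 and ZNF513. The DND-41 calls of ZNF583, ZNF250 and ZNF513 were lost without ACBI-1 replicate 1 (0.40, -0.39 and -0.28), that of ZNF771 without ACBI-1 replicate 2 (0.25) or DMSO replicate 2 (0.38), that of ZNF250 also without DMSO replicate 1 (-0.37) and that of ZNF513 without DMSO replicate 2 (-0.42).

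Changes in MOLT-4 that were not called in DND-41 included 9 rises and 11 falls among the members tested in both lines. Of these members' MOLT-4 calls 48.8% were made the same way in DND-41, beside 45.2% over all genes. ZNF641 went from 18.9 and 21.4 to 12.5 and 11.7 CPM in MOLT-4 (-0.77 ± 0.11, edgeR adjusted p = 1.07e-05) and from 19.2 and 21.0 to 19.4 and 18.6 CPM in DND-41 (-0.09 ± 0.10), where the groups overlapped. ZNF398, a KRAB gene, went from 54.3 and 56.3 to 37.9 and 35.8 CPM in MOLT-4 (-0.61 ± 0.07) and from 39.9 and 37.1 to 34.9 and 34.9 CPM in DND-41 (-0.15 ± 0.08, adjusted p = 0.293). ZNF276 was at -0.53 ± 0.11 in MOLT-4 and -0.24 ± 0.08 in DND-41, and FANCA, a DNA repair gene that shares 2302 exonic bases with it on the opposite strand, was at 0.12 and 0.13. ZNF530 was at -0.46 ± 0.12 in MOLT-4 and -0.19 ± 0.11 in DND-41, and ZNF577 at 0.42 ± 0.12 and 0.25 ± 0.11. ZNF521, at 0 to 0.05 CPM in DND-41, rose in MOLT-4 from 27.4 and 22.2 to 36.4 and 30.1 CPM (0.39 ± 0.10). DESeq2 did not call ZNF530, ZNF577 and ZNF521 in MOLT-4. The call of ZNF521 was lost without ACBI-1 replicate 1 (0.25) or DMSO replicate 2 (0.24), that of ZNF276 without ACBI-1 replicate 2 (-0.38), that of ZNF530 without ACBI-1 replicate 2 (-0.43) or DMSO replicate 2 (-0.44), and that of ZNF577 without ACBI-1 replicates 1 (0.41) or 2 (0.42) or DMSO replicate 1 (0.25).

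The interaction of treatment and line, fitted over all 8 libraries, tested whether the response of a member differed between the lines. It was called for 4 of 284 members, 1.41%, beside 0.641% of 15604 genes tested and 0.981% of other genes with at least 10 CPM. In each of the 4 the change was lower in MOLT-4 than in DND-41. ZNF217, a subunit of corepressor complexes with CoREST, LSD1 and CtBP that is amplified in breast cancers, went from 71.7 and 72.0 to 87.1 and 89.5 CPM in DND-41 (0.29 ± 0.07, edgeR adjusted p = 0.00488). In MOLT-4 it went from 124 and 119 to 109 and 101 CPM (-0.24 ± 0.06, adjusted p = 0.0119). The groups were separate in each line and moved in opposite directions, and the difference, MOLT-4 minus DND-41, was -0.51 ± 0.09 (edgeR adjusted p = 0.00393). The MOLT-4 fall of ZNF217 was lost with scaling by total counts.

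The difference was -0.85 ± 0.17 for ZNF696 (edgeR adjusted p = 0.00999), which fell in both lines, -0.74 ± 0.16 for ZNF653 (0.0221), and -0.65 ± 0.14 for ZNF641 (0.0235). For ZNF333 it was 0.16 ± 0.13 (edgeR adjusted p = 0.862) and for ZNF341 -0.28 ± 0.12 (0.59). The difference of ZNF217 held without any single library, between -0.49 and -0.59. That of ZNF696 was lost without ACBI-1 replicate 2 (-0.83) or DMSO replicate 2 (-0.77) of MOLT-4. Those of ZNF653 and ZNF641 were lost without DMSO replicate 1 of DND-41 (-0.63 and -0.58) and without ACBI-1 replicate 1 (-0.83 and -0.72), ACBI-1 replicate 2 (-0.71 and -0.64) or DMSO replicate 2 (-0.78 and -0.59) of MOLT-4. ZNF653 was also lost without ACBI-1 replicate 2 of DND-41 (-0.63), ZNF641 without replicate 1 (-0.60), and both with DESeq2. The separate line tests of ZNF217 were lost in DND-41 without DMSO replicate 1 (0.26) or 2 (0.29) and in MOLT-4 without ACBI-1 replicate 2 (-0.20) or DMSO replicate 1 (-0.21).

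**Figure D5:**
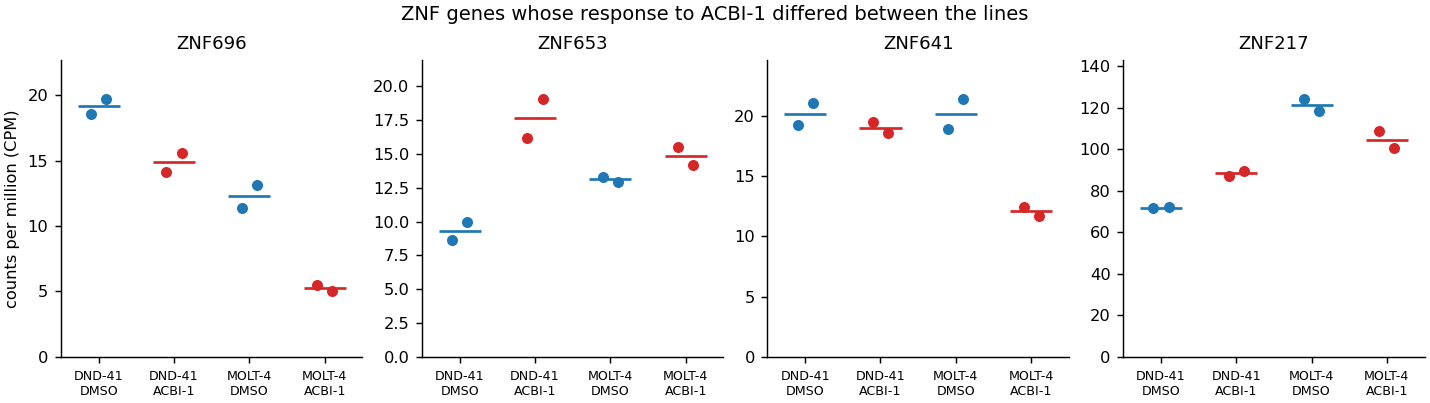
CPM of the 4 members whose response differed between the lines, with 1 point per library, a bar at the mean of the 2 libraries, DMSO in blue and ACBI-1 in red, and each axis starting at 0. ZNF217 goes up in DND-41 (71.7 and 72.0 to 87.1 and 89.5 CPM) and down in MOLT-4 (124 and 119 to 109 and 101 CPM), and ZNF653 goes up in DND-41 (8.61 and 9.96 to 16.2 and 19.1 CPM).

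Members with a known role were read by role. Of all genes tested, 9.83% were called in DND-41 and 10.8% in MOLT-4. At such shares, groups as small as these can hold few calls or none, and no group was tested against them. Of 8 members that act at promoters, none was called in DND-41 (by edgeR or DESeq2; 0 at an unadjusted p below 0.05) and ZNF76, the paralog of the promoter factor ZNF143, rose in MOLT-4 (0.27 ± 0.07). Without ACBI-1 replicate 1 (0.22) or 2 (0.30) or DMSO replicate 1 (0.19) it was no longer called. ZNF143 itself was at 0.16 ± 0.10 and 0.02 ± 0.10, and ZNF384 at 0.09 ± 0.07 and 0.07 ± 0.07. THAP11, a partner of ZNF143, fell in DND-41, by 0.25 on the log2 scale, a call that DESeq2 did not make, and was at -0.02 in MOLT-4.

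Of 8 members that work with corepressors or chromatin enzymes, ZNF217 rose in DND-41, and ZNF335 rose and ZNF217 fell in MOLT-4. ZNF335, a subunit of histone H3 methyltransferase complexes needed for T-cell maturation, went from 154 and 158 to 197 and 192 CPM in MOLT-4 (0.29 ± 0.06). It went from 137 and 141 to 149 and 170 CPM in DND-41 (0.19 ± 0.07, edgeR adjusted p = 0.0859), where the call was missed. Without ACBI-1 replicate 1 of MOLT-4 it was at 0.27 there (edgeR adjusted p = 0.0595). ZNF687 and ZNF592, partners of ZMYND8, were at -0.20 ± 0.07 and -0.13 ± 0.07 in DND-41 and at -0.18 ± 0.07 and 0.00 ± 0.06 in MOLT-4. The partners of ZNF217, RCOR1, KDM1A and CTBP1, were not called in either line, and CTBP2 fell in DND-41 (-0.24 ± 0.08), a call that DESeq2 did not make.

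Of 7 members that act on RNA, ribosomes or the spindle, ZNF330, a nucleolar protein, rose in DND-41 (0.27 ± 0.09), and none was called in MOLT-4 (by edgeR or DESeq2; 1 at an unadjusted p below 0.05). That rise was called neither by DESeq2 nor in the fit of all 8 libraries (0.26, edgeR adjusted p = 0.0684). ZNF207, a spindle and splicing factor and the member with the highest CPM, stood between 337 and 357 CPM in the DND-41 libraries and between 397 and 426 CPM in those of MOLT-4, with the treatments overlapping in each line. ZNF598 was at -0.08 ± 0.07 and -0.01 ± 0.06.

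The 7 KRAB members known to repress transposons were not called in either line by edgeR or DESeq2, with 2 at an unadjusted p below 0.05 in DND-41 and 1 in MOLT-4. ZNF91, which represses SVA elements, was at 0.09 ± 0.08 and -0.03 ± 0.08, and ZNF93, which represses young LINE-1 elements, at -0.21 ± 0.08 and -0.10 ± 0.07. ZNF10, whose KRAB box is used in engineered repressors, was at 0.28 ± 0.13 and 0.17 ± 0.12. Of 27 genes of the machinery that KRAB proteins recruit, none rose (by edgeR or DESeq2), 3 fell in DND-41 and 4 fell in MOLT-4, while 3 and 6 had an unadjusted p below 0.05 in either direction. The falls were 11.1% and 14.8% of these genes, beside 6.05% and 6.94% of all genes tested. Of non-ZNF genes with at least 10 CPM, 7.73% and 8.24% fell, and the differences were not tested. DESeq2 did not call DNMT3B and TRIM33 in MOLT-4. CHD4, the ATPase of the NuRD complex, went from 362 and 355 to 230 and 251 CPM in DND-41 (-0.58 ± 0.07) and from 376 and 380 to 259 and 237 CPM in MOLT-4 (-0.63 ± 0.06). DNMT3B, a DNA methyltransferase, was at -0.43 ± 0.09 and -0.31 ± 0.08, UHRF1, which guides DNMT1 to newly copied DNA, at -0.35 ± 0.07 and -0.28 ± 0.06, and TRIM33 at -0.05 ± 0.07 and -0.22 ± 0.06. TRIM28 was at -0.09 ± 0.08 and -0.02 ± 0.07 and SETDB1 at -0.13 ± 0.07 and 0.03 ± 0.07, so neither was called.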

How the data were processed

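Raw read counts per gene were used as deposited, 1 table per line, with no normalization by the authors. The submitters' processing notes name STAR 2.5.2a, featureCounts, DESeq2 1.12.4 and hg19. The gene annotation was not given in the sources used here, nor was the strand setting. The authors also deposited 1 comparison per line with, per the file headers, a mean signal (baseMean), a log2 fold change with its SE, a test score (stat) and p-values. By its correlation with the counts its sign was ACBI-1 minus DMSO in DND-41 and the reverse in MOLT-4. An adjusted p under 0.05 in the authors' deposited table was held by 12 members in DND-41 and by 21 in MOLT-4, all of which edgeR also called. All sample columns matched the labels, and no replicates agreed within sampling noise.

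The quasi-likelihood F-test of edgeR 4.0.16 (with limma 3.58.1 in R 4.3.3, TMM scaling and filterByExpr) was run on the 4 libraries of each line. Benjamini-Hochberg adjustment covered all genes that passed the filter, and the fit was tested on simulated data. A positive log2 fold change means a higher level with ACBI-1, and errors are SE. No permutation of 2 against 2 libraries can reach 0.05. Alternatives were DESeq2 1.42.0, its size factors, total counts, no filter, a replicate block, all 8 libraries in one fit, removal of a GC trend (6 degrees of freedom), other thresholds and leaving out each library.

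The members, lists, rule and tests were chosen with earlier results of these data known. The named members were the 8 largest called rises and falls per line, the 8 largest called the same way in each direction, those opposite between lines, those with the largest differences, extreme levels or line ratios, and members with a known role. Classes were read by pattern from coding sequences of GENCODE release 29 (GRCh38), in place of the RefSeq proteins intended, with the patterns adjusted after looking at the proteins, and divergent boxes may be missed. Exon lengths, overlaps and GC content came from the same release by Ensembl identifier, and promoters from RefSeq (GRCh38.p14). ZNF561, ZNF74, ZNF496, ZNF202, ZNF213, ZNF500, ZNF517, ZNF438 and the overlapping genes lie outside the naming rule.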

Additional observations from a re-analysis of the deposited data

Results flagged for a closer look

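The response to ACBI-1 differed between the lines, by the interaction of treatment and line over all 8 libraries, in 4 members. The difference in log2 fold change, MOLT-4 minus DND-41, was -0.508 for ZNF217, -0.651 for ZNF641, -0.737 for ZNF653 and -0.851 for ZNF696. ZNF217 moved in opposite directions in the lines, ZNF696 fell in both, ZNF653 was called in DND-41 and ZNF641 in MOLT-4. ZNF398 was next at -0.44 (edgeR adjusted p = 0.0505), and it was called with DESeq2 size factors (0.0344).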

How the results depend on the processing

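The members called were 43 in DND-41, 42 in MOLT-4, 20 the same way in each line and 4 for the difference between the lines. With DESeq2 they were 16, 24, 8 and 2, and at an adjusted p of 0.01 they were 21, 27, 10 and 2. Without a filter on low counts they were 0 (79 at an unadjusted p below 0.05, edgeR), 1, 0 and 0 (19 at an unadjusted p below 0.05). At a minimum of 20 CPM, 27 of 156 were called in DND-41, 27 of 155 in MOLT-4 and 1 for the difference. Leaving out 1 library gave 0 to 17 in DND-41, 0 to 37 in MOLT-4, 0 to 20 the same way and 1 to 5 for the difference. In the fit of all 8 libraries, where the remaining library of a group was assumed to vary like the other groups, it gave 22, 35, 20 and 16 in DND-41 and 22, 23, 27 and 24 in MOLT-4. DESeq2 size factors, total counts, the fit of all 8 libraries, the GC trend and a minimum of 5 CPM stayed within 1.5 times of these counts.

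Same-numbered libraries of a line deviated together only weakly, with correlations of 0.0669 in DND-41 and 0.067 in MOLT-4, and the labels do not say that a number marks a shared culture or day. With the replicate block 72 members were called in DND-41, 60 in MOLT-4, 37 the same way and 5 for the difference.

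For the 69 named members, alternatives kept the side of the threshold in 2682 values, lost the call in 304 and gained one in 19, and no called change reversed. Of the 2682 values, 183 had the other sign and were called in neither fit. For the count called the same way, the alternatives without a filter and with the GC trend removed were chosen after seeing the data. So were the single members without a filter and all alternatives for their difference between lines.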
